A study of Mus musculus with 14 samples.

Results

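The Agilent mouse array used in this study carried, beside its probes for genes, probes for stretches of the genome between genes that had been proposed to give rise to long noncoding RNA. Each such interval is named by its chromosome, start and end in the mm9 build and by a letter for its strand, F for forward and R for reverse, and its members were found by that form of the name alone. Of 55681 probes on the array, 16181 belonged to 4607 such strand-specific names, out of 36406 names in all. The names fell on 3540 intervals, of which 1067 had probes for both strands, 1251 for F alone and 1222 for R alone. Many intervals overlapped each other, and merging the overlaps left 2223 separate stretches. The intervals had a median length of 7315 bases, with quartiles of 787 and 21815 bases, and a name held a median of 3 probes, from 1 to 10. They lay on 20 chromosomes, with 153 intervals on chromosome X and 0 on chromosome Y.

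RNA came from satellite cells, the stem cells of skeletal muscle, sorted from skeletal muscle by flow cytometry for integrin alpha 7 and CD34 and against CD31, CD45, CD11b and Sca1. C57BL/6 mice gave the Young group at 2, 2 and 3 months, the Old group at 22, 23 and 24 months and the Geriatric group at 30 and 29 months (replicates 1 and 3). SAMR1 and SAMP8 mice, the resistant and the prone line of the senescence-accelerated mouse, gave 3 arrays each at 12 months. The design set Old and Geriatric against Young, and SAMP8 against SAMR1, to follow natural and accelerated ageing of these cells. The labels call the replicates biological and do not say whether an array held cells of 1 animal or of several.

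Long intergenic noncoding RNAs are transcribed, often spliced and polyadenylated like messenger RNAs, but hold no long open reading frame. Most are expressed at low levels and in few cell types, and some act on genes nearby, for example by bringing chromatin-modifying complexes to a promoter or by the act of transcription itself. In the muscle lineage, noncoding transcripts are known near genes for the regulators MyoD and Myogenin and at imprinted loci such as H19 and Dlk1 to Meg3. A probe for an interval reports RNA at 60 bases only, so that a signal gives neither the length nor the ends of a transcript.

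The probe sequences of the intervals on which the results turn show what was measured. The first pair, from an interval with both strands, reads the same 60 bases at chr2:181663971-181664030 (mm9) from opposite strands, and is shown because such pairs allow strand to be compared with position held fixed; the F probe comes first.
chr2:181650800-181669350 F: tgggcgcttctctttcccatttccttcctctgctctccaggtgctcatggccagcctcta
chr2:181650800-181669350 R: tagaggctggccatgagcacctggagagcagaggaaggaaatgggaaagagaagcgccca
The next probes are those of the intervals that led 1 or more comparisons. They lie at chr6:12074121-12074180 (plus strand), chr5:26338040-26338099 (plus), chr7:66874528-66874587 (minus), chr16:29812284-29812343 (plus), chr17:6831039-6831098 (minus) and chr4:89109487-89109546 (minus), in that order, each inside the interval after which it is named.
chr6:12062275-12075800 F: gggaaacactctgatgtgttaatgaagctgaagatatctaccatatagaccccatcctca
chr5:26333765-26338143 F: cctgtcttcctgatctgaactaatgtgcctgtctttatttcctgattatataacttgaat
chr7:66874527-67012170 R: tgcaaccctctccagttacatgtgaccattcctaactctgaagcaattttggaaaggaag
chr16:29804864-29815614 F: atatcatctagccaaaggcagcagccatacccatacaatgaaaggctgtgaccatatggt
chr17:6830756-6832322 R: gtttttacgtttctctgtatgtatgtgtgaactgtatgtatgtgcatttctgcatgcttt
chr4:89032648-89133273 R: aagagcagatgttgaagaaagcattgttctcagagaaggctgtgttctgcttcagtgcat
The G and C content of these 6 probes ran from 35% to 45%, and the chr7 probe shared a run of 30 bases with 1 probe of another name on the array, whereas no such run was found for the other 5.

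Levels below are log2 of the processed spot signal minus the 75th percentile of all probes on the same array, so that 0 is that percentile. Pax7, the transcription factor that defines satellite cells, was well above background on all 14 arrays at 3.39 to 4.58. Of 7 genes listed for fibro-adipogenic cells, 6 were well above background on all 14 arrays, among them Dcn, of the extracellular matrix, at 3.17 to 6.07, Col3a1, a collagen, at 4.18 to 5.39, and Ly6a, which encodes the Sca1 of the sort, at -4.76 to 1.06. The other one, the receptor gene Pdgfra, was so on 2 arrays, both SAMR1. The part of these genes in the results was not tested. Pecam1, which encodes the CD31 used to exclude endothelial cells, ran from -4.95 to 3.8 and was highest in SAMR1 and SAMP8. Itgam, which encodes the CD11b that the sort excluded, stood at 7.42 to 8.7, above Pax7. Ptprc, which encodes the excluded CD45, stood at -2.34 to -1.49. Both were well above background on all 14 arrays. The part of Pecam1, Itgam and Ptprc in the results was not tested. Of the lists of other cell types, 2 of 9 leukocyte symbols and 1 of 6 muscle fibre genes were lower in Geriatric than in Old (14.4% of all features). Among the leukocyte symbols, Adgre1 and Emr1 are 2 names of 1 gene with the same values. Of 7 fibro-adipogenic genes 1 was higher in Geriatric than in Old (5.52% of all features). That fibro-adipogenic list also had 1 higher in Geriatric than in Young (1.58% of all features). Of 7 smooth muscle and pericyte genes 1 was higher and 1 lower in Old than in Young (1.19% and 0.24% of all features) and likewise in Geriatric than in Young (1.58% and 2.61%). None of 8 endothelial, 5 Schwann cell and 3 red cell genes was called in any comparison, and of 10 satellite cell genes 1 was higher in Geriatric than in Old. All mice are labelled male. Xist, the noncoding RNA of the inactive X chromosome in females, stood at 5.08 to 5.86 on the Young and Old arrays and at -8.15 to -3.52 on the other 8, while the Y-linked Ddx3y stood at -7.69 to -7.36 and at -0.55 to 0.56 in the same order. Xist was well above background on all 3 SAMP8 arrays and 1 SAMR1 array as well. The Y-linked Uty and Kdm5d were not detected on any Young or Old array, as Ddx3y was not. Eif2s3y, also Y-linked, was well above background on all 14 arrays. It stood at -1.85 to -0.86 on Young and Old and -0.64 to -0.17 on the others, and was not called in any comparison. By Xist, Ddx3y, Uty and Kdm5d, but not by Eif2s3y, the Young and Old arrays thus went against their labelled sex. In these bulk samples fewer cells of a type and less RNA per cell cannot be told apart. Comparisons of Geriatric with Young or Old cross this division, and age and the division cannot be told apart there, whereas Old versus Young and SAMP8 versus SAMR1 lie within it.

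Interval probes were detected nearly as often as probes for named genes. A probe was well above background, by the scanner software's own flag, for 82.1% ± 1.8 (SD, n = 3) of interval probes in Young, 86.0% ± 3.21 (n = 3) in Old, 82.7% ± 2.19 (n = 2) in Geriatric, 81.1% ± 1.91 (n = 3) in SAMR1 and 78.1% ± 1.0 (n = 3) in SAMP8. For the 25172 probes of named genes the group means lay between 83.0% and 87.0%. The 1543 probes for olfactory, vomeronasal and taste receptors reached 53.7%, 67.5%, 43.3%, 36.3% and 34.7% in the same order of groups.

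The arrays of SAMP8, at 77.0% to 78.9%, all lay below those of SAMR1, at 79.3% to 83.1%, a difference of 2.97 percentage points (exact permutation test over arrays, two-sided p = 0.1, the smallest that 3 against 3 allow; adjusted p = 0.4 over 4 comparisons). The same order held for all probes, at 77.1% to 78.5% against 78.9% to 81.9%, and for named genes, at 82.2% to 83.4% against 84.0% to 86.1%. The other 3 pairs of groups overlapped, with exact p of 0.2 for Old versus Young, 0.8 for Geriatric versus Young and 0.4 for Geriatric versus Old. Old 1 was the highest array for each class of probe, at 89.7% of interval probes, against 83.7% on the lowest array of the Old group.

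**Figure D1:**
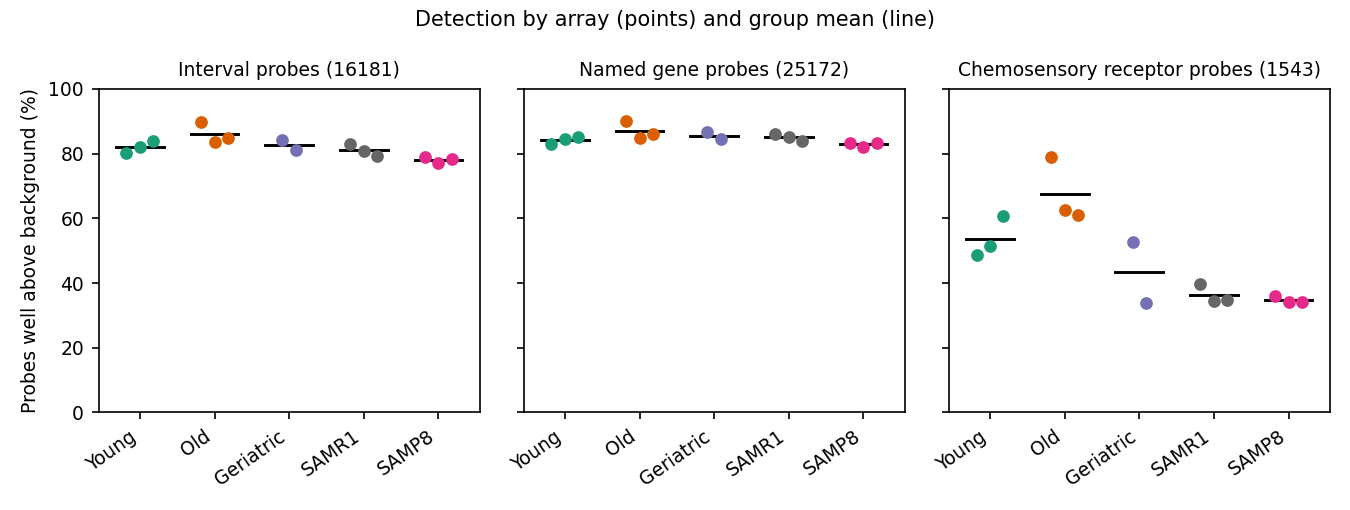
Share of probes well above background (%, y axis) on each of 14 arrays (points) with the group mean (line), for interval probes, probes of named genes and probes of chemosensory receptors. Interval probes run from 77.0% to 89.7%, close to named genes and above the receptors on each array.

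On all 14 arrays together, 64.4% of interval probes (10416) were well above background throughout and 3.73% (603) on none, against 72.5% and 3.77% of named gene probes and 21.8% and 11.1% of receptor probes. Detection followed the composition of the probe. Of interval probes with under 35% G and C, 50.9% were detected on average over arrays, rising through 64.0% from 35% to 40%, 80.3% from 40% to 45% and 87.8% from 45% to 50% to 98.2% at 50% or more. Named gene probes showed the same order, with 62.3% in the lowest class and 98.1% in the highest. Interval probes had more G and C, with a median of 45% against 41.7% for named genes, so that at equal composition they were detected less often than named genes in every class under 50%. Whether a probe detected in this way reports a noncoding transcript, a part of a neighbouring gene's transcript or DNA was not tested.

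Where an interval had names for both strands, both were nearly always detected. Counting a name as detected in a group when 1 of its probes passed that flag on 2 or more arrays, both strands were detected for 1011 of 1067 intervals in Young (94.8%), 1030 in Old (96.5%), 989 in Geriatric (92.7%), 1004 in SAMR1 (94.1%) and 991 in SAMP8 (92.9%). A single strand was detected for 29 to 55 intervals and neither for 8 to 24. Geriatric had 2 arrays, and so had to pass on both of them. By the same rule 82.3%, 86.6%, 77.4%, 81.2% and 78.3% of single interval probes were detected, in the same order of groups. A name passed through any 1 of its probes, so the high share of pairs follows in part from the way of counting. The share that this counting alone would give was not computed.

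For 98 pairs the F and the R probe were exact reverse complements, as in the chr2 pair printed above, and so read 1 position from both strands. Both members of a pair were well above background for 72 to 89 of the 98 pairs on an array, 1 of them for 3 to 16 and neither for 6 to 17. The chr2 F probe stood at 1.93, 2.31 and 2.38 on the Young arrays, 2.88, 2.76 and 2.43 on Old, and 0.91 and 1.16 on Geriatric. Its reverse complement stood at 3.47, 3.57 and 3.71, then 4.29, 4.42 and 3.8, then 2.47 and 2.36. Both probes were lower on each Geriatric array than on any Young or Old array, by 1.65 (F) and 1.76 (R) between the Geriatric and Old means. SAMR1 and SAMP8 arrays were also low for both, at 0.74 to 1.2 for F and 1.96 to 2.52 for R.

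Changes measured on the 2 strands of 1 position were alike. Over the 87 reverse-complement pairs with both probes kept, the F and R changes had a Pearson correlation of 0.785 for Old versus Young, 0.871 for Geriatric versus Young, 0.858 for Geriatric versus Old and 0.789 for SAMP8 versus SAMR1. The signs matched in 71, 78, 78 and 69 of 87 pairs, and the median absolute difference was 0.17 to 0.28. The members of a pair share arrays and base composition.

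Among all pairs of kept probes of the same interval, the likeness of 2 probes' changes fell with the distance between them, more than it depended on strand. For Old versus Young, probes 1 to 59 bases apart had r = 0.846 on the same strand (184 pairs) and 0.734 on opposite strands (2233 pairs). At 60 to 500 bases these fell to 0.501 and 0.403, and beyond 10 kb to 0.236 and 0.232. Geriatric versus Old gave 0.939 and 0.759 in the nearest class and 0.374 and 0.373 in the farthest. Pairs from 1 interval share arrays, and a probe enters several pairs. The labels' protocols describe amplification of the whole transcriptome and labelling of the resulting DNA, and none of them states whether the strand of the RNA was kept, so F and R below name the probe and not a strand of transcription.

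**Figure D2:**
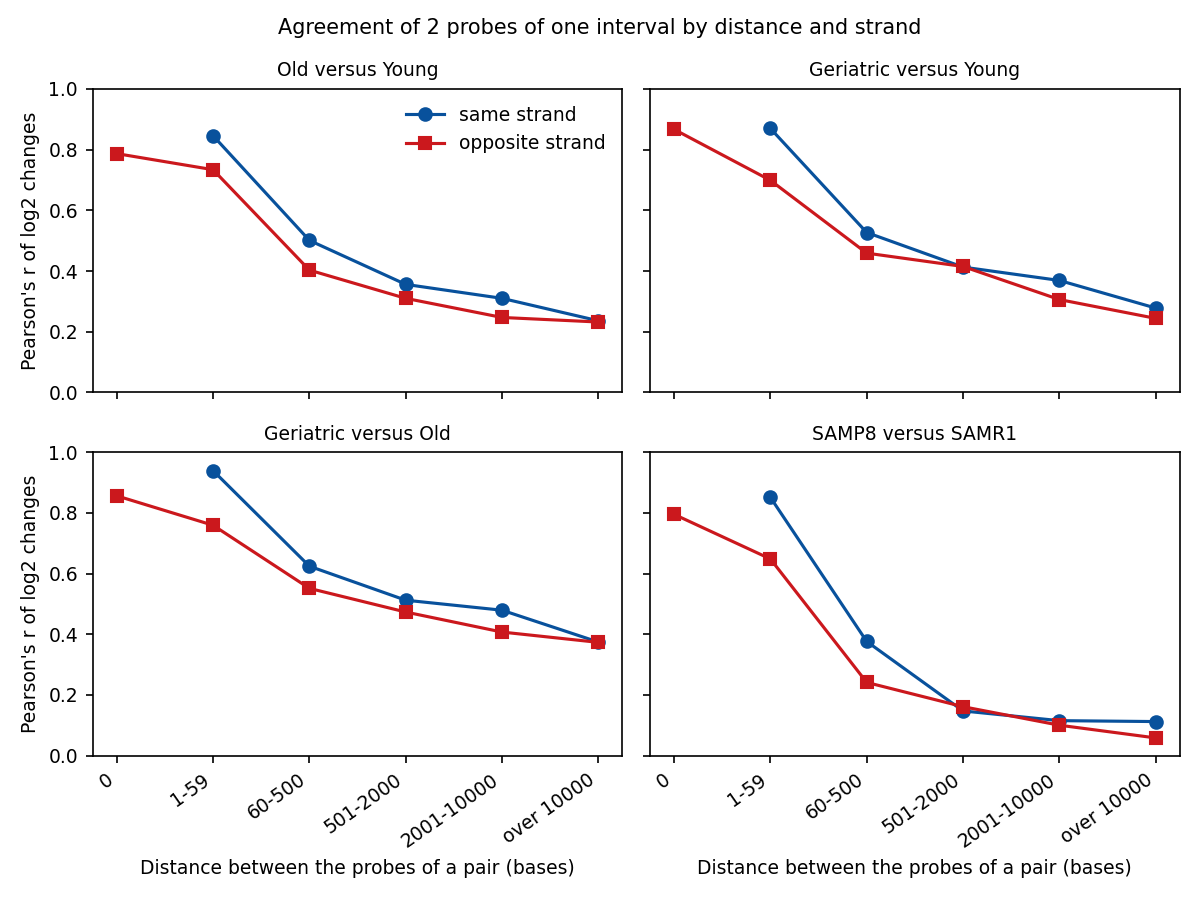
Pearson's r between the log2 changes of 2 probes of 1 interval (y axis, 0 to 1) by the distance between the probes in bases (x axis, 6 classes), for probes on the same strand (circles) and on opposite strands (squares), in 4 comparisons. In each panel r falls with distance, and at over 10 kb the 2 lines come close, as at 0.236 and 0.232 for Old versus Young.

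For tests between groups each name was represented by its probe with the highest mean among those kept, that is, flagged as detected on 2 or more arrays of any 1 group. A probe was kept for 4485 of the 4607 interval names, and 122 names had none. Names were tested with all others, 32870 in all, in 1 limma model, and a name was called at a Benjamini-Hochberg adjusted p under 0.05. The replicates of a group and the shared estimate of spread set all p-values below.

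Old versus Young gave 45 called interval names (1.0% of 4485, against 1.43% of all features), with 37 higher in Old (background 1.19%) and 8 lower (background 0.24%). Geriatric versus Young gave 131 (2.92%, against 4.19%), with 35 higher (background 1.58%) and 96 lower (background 2.61%). Geriatric versus Old gave 859 (19.2%, against 19.9%), with 96 higher (background 5.52%) and 763 lower (background 14.4%). SAMP8 versus SAMR1 gave 25 (0.557%, against 0.453%), with 8 higher (background 0.225%) and 17 lower (background 0.228%). The share of interval names called was thus near or below the share of all features in each comparison of C57BL/6 mice. The comparisons of Old and Geriatric share the Young or the Old arrays and are not independent of each other.

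**Figure D3:**
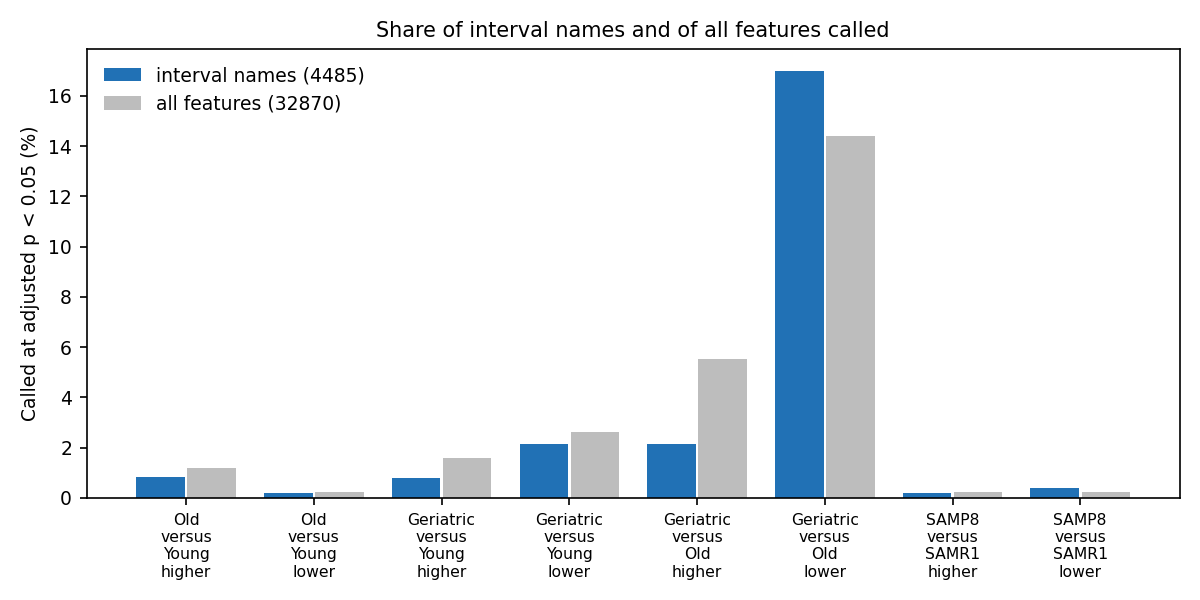
Share of interval names (4485) and of all features tested (32870) called at adjusted p under 0.05 (%, y axis), higher and lower in the first group named, for 4 comparisons (limma). The largest bars are those lower in Geriatric than in Old, with 17% of interval names and 14.4% of all features.

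The whole distribution of interval changes was displaced in the comparisons with Geriatric. The median change of interval names was 0.12 for Old versus Young, -0.32 for Geriatric versus Young, -0.44 for Geriatric versus Old and 0.01 for SAMP8 versus SAMR1, beside 0.06, -0.18, -0.22 and 0.01 for all features, -0.04, -0.03, 0.06 and 0.00 for named genes, and 0.85, -1.06, -2.0 and 0.07 for chemosensory receptors. Dim intervals were displaced most: in 4 classes of equal size by mean level, the median change of Geriatric versus Old was -0.77, -0.52, -0.35 and -0.30 from dimmest to brightest, and that of Old versus Young was 0.41, 0.19, 0.08 and -0.02. Quantile normalization of the processed signal moved the median of all features by -0.11, 0.14 and 0.25 in the first 3 comparisons. With it, 24.1% of the interval names called in Geriatric versus Old were higher, and 30.4% with each array centred on the interval probes themselves (an alternative chosen after the values were seen), against 11.2% as reported; the excess of falls remained under both, at 569 against 181 and 485 against 212.

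In the cells of Old mice 37 interval names rose, of which 12 and 17 lay in the 2 dimmest of the 4 classes of mean level. The interval with the smallest adjusted p, chr6:12062275-12075800 F, lies 31262 bases from the nearest probe of Phf14, which encodes a chromatin-binding PHD finger protein. It stood at -7.04, -7.35 and -7.66 in Young, where it was not well above background on any array, and at -4.12, -5.03 and -4.83 in Old, where it was on all 3. The change was 2.69 ± 0.26 (SE, adjusted p = 0.00102), and taking the lowest detected signal of each Young array in place of the undetected one it was at least 3.67-fold. No array of the other groups detected it, with levels from -8.23 to -7.75, and its R name was 0.85 higher with an adjusted p of 0.182. Bounds written "at least" below were made in this way, from the mean of the group that detected the probe. The filter kept the chr6 F probe through Old alone, the group where it was high. Any probe with such a bound was kept only through groups that detected it, and its p-value is not free of that choice.

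The largest rise was that of chr7:50509139-50526856 F, at least 10.3-fold, which lay at -2.61, -4.18 and -2.54 in Old and at -7.60, -7.52 and -6.63 in Young (4.15 ± 0.76, adjusted p = 0.0252). The interval chr10:69819062-69871640 R rose at least 7.49-fold (3.27 ± 0.59, adjusted p = 0.0242). Its probe was well above background on 3 Old arrays, 1 Geriatric array and no others, so the filter kept it through Old alone. In the chr7 and chr10 intervals, the opposite strand changed by 0.35 and 0.75, with adjusted p of 0.461 and 0.237.

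A different pattern was seen for chr9:24307857-24309318 F, 52182 bases from Dpy19l2. It stood at -4.77, -4.47 and -4.80 in Young and at -1.10, -2.02 and -2.63 in Old (2.77 ± 0.47, adjusted p = 0.0215), and it stayed high in Geriatric, at -2.48 and -1.20 (2.84 ± 0.53 against Young, adjusted p = 0.0131). Its levels in SAMR1 and SAMP8 ran from -2.24 to -0.71, so that Young was the group that stood apart. For chr8:56200419-56205756 F, by contrast, Old stood apart, at 0.51 to 1.48 against -2.55 to -0.84 in Young and -3.34 to -1.51 in all other arrays (2.84 ± 0.51 over Young, adjusted p = 0.0249); its probe shares a run of 30 bases with 1 other probe on the array. Only 1 interval was called on both strands: chr3:93564825-93576725 rose by 2.17 ± 0.42 on F and 1.90 ± 0.36 on R (adjusted p = 0.0326 and 0.0316), 24069 bases from Tdpoz4.

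The 8 falls in Old were smaller, from -1.29 to -0.94 among the 7 that may be named by the rule used. The largest was chr15:85534202-85537090 F, at 1.88, 1.69 and 1.95 in Young and 0.79, 0.12 and 0.74 in Old (-1.29 ± 0.23, adjusted p = 0.0247), with Geriatric back at 1.97 and 2.44. It was joined by the long overlapping interval chr15:85412264-85549139 R (-0.94 ± 0.19, adjusted p = 0.0394), whose nearest named gene is Wnt7b at 45309 bases. On chr6, upstream of the interval that rose, chr6:11996975-12037300 R fell by 1.14 ± 0.21 (adjusted p = 0.0249); Phf14 probes lie inside it, and Phf14 itself changed by -0.92 (adjusted p = 0.225).

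The count for Old versus Young rested on single arrays. Without Old 1, 2 interval names were called; without Young 1, 8; without Old 2, 24; without Young 2, 25; and without Old 3, 76. Leaving out arrays of other groups, which enter only through the shared spread, gave as few as 24 (without SAMR1 1), 27 (without SAMR1 3), 28 (without SAMR1 2) and 29 (without SAMP8 1). Within either slide alone none was called (569 names on slide 1 and 334 on slide 2 at an unadjusted p under 0.05), but on each slide 1 of the groups had 1 array, which was assumed to vary like the others. With the slide as a block 82 were called. The slide of an array was inferred from the serial number in its deposited name.

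In Geriatric cells intervals on chromosomes 5 and 7 that Young and Old arrays detected were not well above background. The interval chr5:26333765-26338143 F lies 22789 bases from Speer4a, of a rodent gene family expressed in testis. It stood at -2.13, -0.67 and 0.21 in Young and 0.45, -0.66 and -1.06 in Old, and was not well above background in Geriatric, at -8.30 and -6.19. The fall was at least 56.4-fold from Young (-6.38 ± 0.78, adjusted p = 0.00147) and at least 76.6-fold from Old (-6.82 ± 0.78, adjusted p = 0.000347). SAMR1 and SAMP8 were also low, at -7.79 to -5.47. Speer4a, called by its own probe, fell by 5.0 from Young and fell by 6.5 from Old, with 1 of the 2 Geriatric arrays, since the spot of the other was left out as an outlier.

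Further intervals were called around the Speer4 genes, on the 2 stretches of chromosome 5 that hold them. Of 11 interval names on the stretch with Speer4d, all 11 fell from Old to Geriatric (changes of -5.90 to -0.99, median -3.91), beside a background of 14.4%, and 3 fell from Young, beside 2.61%. Of 4 names on the stretch with Speer4a, 3 fell from Old and 2 from Young, beside the same backgrounds, and the one that did not fall from Old changed by 0.02. These stretches were chosen after the values were seen. Probes of 3 of the intervals named there share 30 or more bases with another probe on the array, and members of such a family cannot be told apart with certainty.

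A second stretch with repeated genes lay on chromosome 4 around Zfp600, Zfp982 and Zfp534, where zinc finger genes are clustered. Of its 16 interval names 12 fell from Old to Geriatric and 6 from Young, beside backgrounds of 14.4% and 2.61%, with none higher; the median changes were -2.62 and -1.86. One of them was chr4:146889650-146904300 R, 2132 bases from Zfp982, at least 28.5-fold lower in Geriatric than in Old and at least 12.4-fold lower than in Young (-5.21 ± 0.69 and -4.00 ± 0.69, adjusted p = 0.000741 and 0.00877). Zfp982 fell by 1.61 from Old (adjusted p = 0.0304). Of 5 named genes in the stretch 4 fell from Old to Geriatric and none from Young. In Old versus Young, 15 of the 16 names were above 0 and none was called.

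The largest difference between Geriatric and Old was that of chr7:66874527-67012170 R. It lies in the imprinted Prader-Willi region, 71091 bases from the probe of Snhg14, a long host transcript of small nucleolar RNAs best known from neurons. It stood at -2.68, -1.77 and -0.40 in Young and 0.69, -0.25 and -0.44 in Old, and on neither Geriatric array was it well above background (-7.29 and -8.17). The fall was at least 166-fold from Old (-7.73 ± 0.73, adjusted p = 0.000139) and at least 54.1-fold from Young (-6.11 ± 0.73, adjusted p = 0.00135). It was also not detected in SAMR1, at -6.85, -8.11 and -6.09, but was in SAMP8, at -4.30, -2.91 and -3.03, so that it was at least 8.72-fold higher in SAMP8 than in SAMR1 (3.60 ± 0.66, adjusted p = 0.0426). Of 6 interval names from there to Snrpn, 5 fell from Old to Geriatric and 1 from Young, beside backgrounds of 14.4% and 2.61%. This stretch was also chosen after its values were seen. The 2 Geriatric arrays differed on F names there. They stood at 0.31 and -3.55 for chr7:67001975-67050575 F, and at 0.5 and -2.21 for chr7:66926500-66952100 F. For chr7:67047536-67050290 F they stood at 1.44 and -1.07. Young 1, at 0.35, 0.61 and 1.02 in that order, lay near Geriatric 1. Snrpn, the imprinted gene at the end of the stretch, changed by 0.59 (adjusted p = 0.387). None of the other 5 interval names was called in SAMP8 versus SAMR1.

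Both strands of some intervals fell from Old to Geriatric. The interval chr1:85117750-85129200 fell by 7.12 ± 0.83 on R and by 2.44 ± 0.39 on F (adjusted p = 0.000375 and 0.0022), with all 8 other probes below 0. R stood at 1.43, 2.73 and 2.94 in Young, 4.93, 3.58 and 3.71 in Old, and -2.75 and -3.34 in Geriatric. On chr16:89961600-89971725 the strands fell by 4.48 ± 0.67 (R) and 4.40 ± 0.62 (F), and on chr13:66381200-66410200 by 3.58 ± 0.29 (R) and 3.78 ± 0.61 (F). The interval with the smallest adjusted p was chr3:35590823-35631823 F, at least 23.4-fold lower (-5.33 ± 0.37, adjusted p = 2.35e-05), whose R name fell by 2.94 ± 0.53 (adjusted p = 0.00392). Over all 1044 intervals with both strands tested, both were called in 64, with the same sign in 63, and 1 alone in 249; for Geriatric versus Young these counts were 11, 11 and 43.

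Rises in Geriatric were fewer. The interval chr1:44922628-44923224 F, not well above background on any Young array, rose at least 6.51-fold from Young, from -7.55, -7.49 and -5.83 to -3.97 and -3.03 (3.46 ± 0.84, adjusted p = 0.0438), and its other probe rose too. The interval chr16:23534663-23535172 F, detected on 1 of 3 Old arrays, rose from -6.74, -4.64 and -6.61 in Old to -3.20 and -1.63 (3.58 ± 1.1, adjusted p = 0.0417), with its 2 other probes above 0 but not called. The interval chr16:29804864-29815614, 150358 bases from Opa1, rose from Young on both strands, by 2.75 ± 0.32 on F and 2.71 ± 0.39 on R (adjusted p = 0.00121 and 0.00347). F stood at -0.23, 0.81 and 0.80 in Young, 1.73, 1.13 and 1.57 in Old, 2.98 and 3.45 in Geriatric, 2.22, 2.35 and 2.52 in SAMR1 and 3.47, 3.47 and 3.17 in SAMP8, and all 4 other F probes were called higher too. Both strands were also higher in Geriatric than in Old (1.73 on F and 2.26 on R, adjusted p = 0.00474 and 0.00317). Opa1 changed by 0.36 against Young (adjusted p = 0.574) and rose by 1.26 against Old (adjusted p = 0.0292).

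The overlapping intervals chr15:32167516-32174417 F and chr15:32167516-32174427 F hold the small nucleolar RNA gene Snord123 and rose from Young by 2.84 ± 0.39 and 2.80 ± 0.48 (adjusted p = 0.00249 and 0.00841), while Snord123 rose by 3.02 (adjusted p = 0.00751). The 2 interval probes start at bases 32171299 and 32171297, read nearly the same sequence and are not separate measurements. The R names changed by 0.20 and 0.23, with adjusted p of 0.654 and 0.63; the difference between strands was not tested. Further rises on both strands were seen at chr6:57583950-57624216 (1.93 on F, 1.75 on R), which overlaps Herc6, an interferon-induced gene whose own change was 0.42 (adjusted p = 0.644), at chr10:93819821-93976621 (1.51 and 1.46) and at chr13:114106455-114118105 (1.30 and 1.23). The interval chr7:99878349-99882258 R, not detected in Young at -7.77 to -7.47, reached -4.38 and -4.59 in Geriatric, at least 4.15-fold more (3.12 ± 0.39, adjusted p = 0.0017). It stood at -4.80 to -3.99 in the SAM lines and at -6.74 to -5.11 in Old.

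The Geriatric group had 2 arrays, and its counts moved with each of them. Without Geriatric 1, 52 interval names were called against Young and 414 against Old; without Geriatric 3, 32 and 218. Without Young 3, 57 were called against Young. Without Old 1 or Old 2, 469 and 511 were called against Old. In each case falls outnumbered rises, as in 198 against 20 without Geriatric 3. Both Geriatric arrays lay on slide 2; within that slide, 163 names were called against Old (6 higher, 157 lower), of which 148 were among the 859, and 0 against Young by limma (330 at an unadjusted p under 0.05), where the slide held 1 Young array, assumed to vary like the others. With the slide as a block the counts were 967 against Old and 83 against Young. Among intervals within 200 kb of the Xist probe, 1 name of 7 was called in any comparison. It was chrX:100481826-100483511 R, 178663 bases away, which fell by 1.86 from Old to Geriatric (adjusted p = 0.0183). In that comparison 14.4% of all features were lower.

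**Figure D4:**
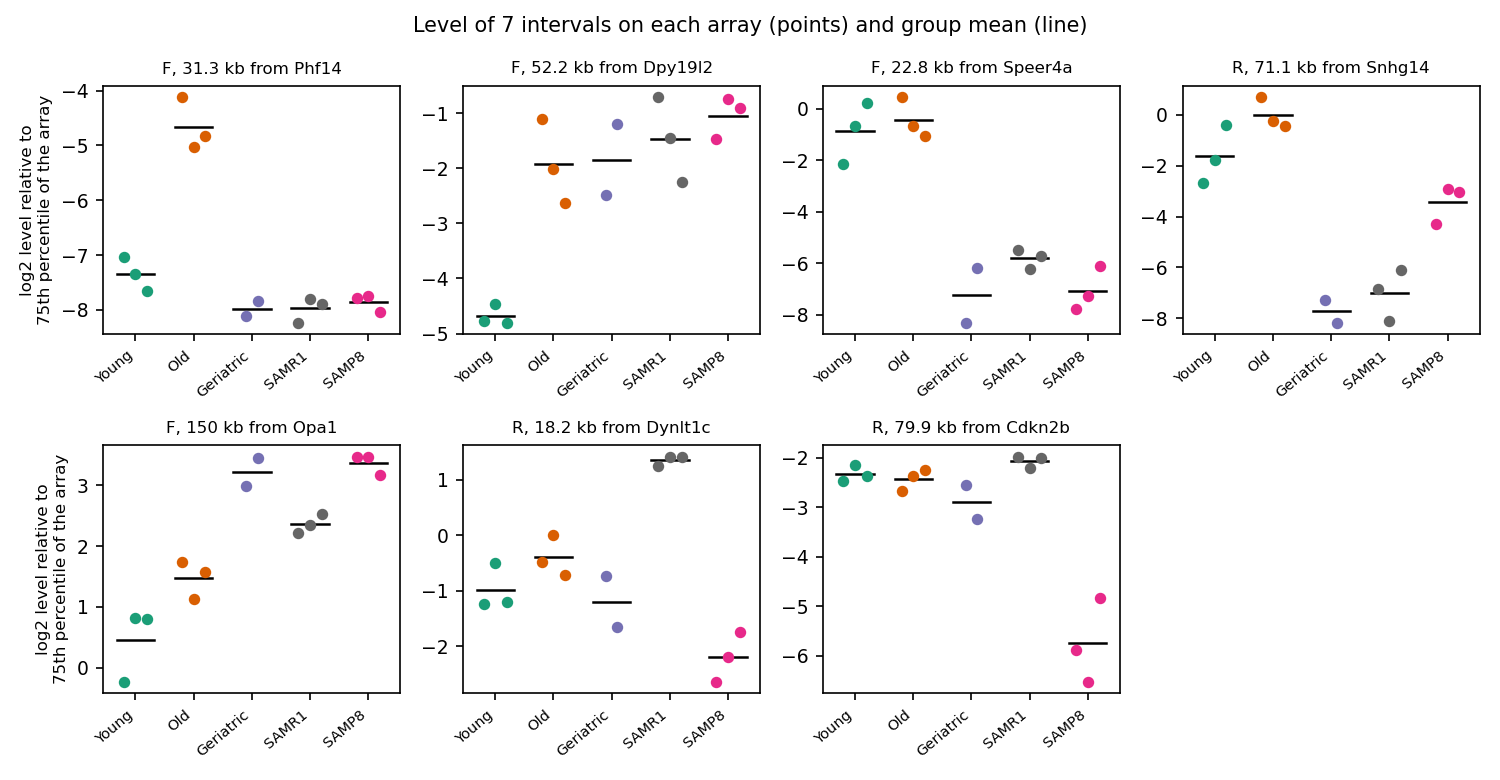
Level of 7 intervals (log2 relative to the 75th percentile of the array, y axis, a scale per panel) on each array (points), with group means (lines); panel titles give the strand letter and the nearest named gene. Old stands apart near Phf14 and Young near Dpy19l2, Young and Old together near Speer4a, and SAMP8 near Cdkn2b, with -6.53 to -4.83 against -3.24 to -1.97 on the other 11 arrays.

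Between SAMP8 and SAMR1, 8 of the 25 called interval names lay on 1 stretch of chromosome 17 and all 8 were lower in SAMP8. The largest was chr17:6830756-6832322 R, 18170 bases from Dynlt1c. It stood at 1.25, 1.41 and 1.42 in SAMR1 and -2.64, -2.19 and -1.74 in SAMP8 (-3.55 ± 0.32, adjusted p = 0.000323), and both other probes of the name fell too. The 8 C57BL/6 arrays lay between the lines, from -1.65 to 0.01. Next came chr17:6817346-6819981 F (-2.64 ± 0.42, adjusted p = 0.0189), chr17:6455677-6476228 F (-2.21 ± 0.38, adjusted p = 0.0286) and chr17:6265275-6362150 R (-2.20 ± 0.41, adjusted p = 0.0456). The probes of chr17:6455677-6476228 F and chr17:6265275-6362150 R have nearly the same sequence. Their SAMR1 levels were 4.6, 5.07 and 4.94 and 4.5, 4.83 and 4.83, so these names are not separate measurements.

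One interval of the stretch, chr17:6602100-6615425, was lower on both strands, by 1.94 ± 0.24 on F and 1.47 ± 0.22 on R (adjusted p = 0.00371 and 0.0139). It holds the probe of Dynlt1e, now named Dynlt1f, one of a family of near-identical genes for a dynein light chain. F stood at 2.35, 2.39 and 2.22 in SAMR1, 0.41, 0.61 and 0.10 in SAMP8 and 0.47 to 1.36 in C57BL/6. The named genes of the stretch were lower with it: Tmem181a, for a membrane protein, by 3.44 ± 0.25 (adjusted p = 4.2e-05), Dynlt1e by 1.63 ± 0.23 (adjusted p = 0.00889) and Dynlt1c by 1.81 ± 0.28 (adjusted p = 0.016). Tulp4 (0.20, adjusted p = 0.973) and Sytl3 (-0.48, adjusted p = 0.758), at the 2 ends of the stretch, did not pass.

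The fall was not general to the stretch. Of 16 interval names from Tulp4 to Sytl3, a stretch chosen after its values were seen, 8 were lower, beside a background of 0.228%, and the other 8 ran from -1.39 to 0.12; 13 of the 16 were below 0. Probes of 4 of the called names share at least 30 bases with 1 other probe on the array, so that part of these signals may come from copies of the same sequence. Among them, chr17:6265275-6362150 R and chr17:6455677-6476228 F share it with each other, so the 8 called names are not 8 separate measurements. In Tmem181a, SAMR1 stood at 0.73, 1.10 and 0.68, SAMP8 at -2.23, -3.12 and -2.45 and C57BL/6 between -1.83 and -0.84, which is again the order in which SAMR1 is highest. None of the 16 interval names was called in Old versus Young or Geriatric versus Young, and 1 was in Geriatric versus Old.

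**Figure D5:**
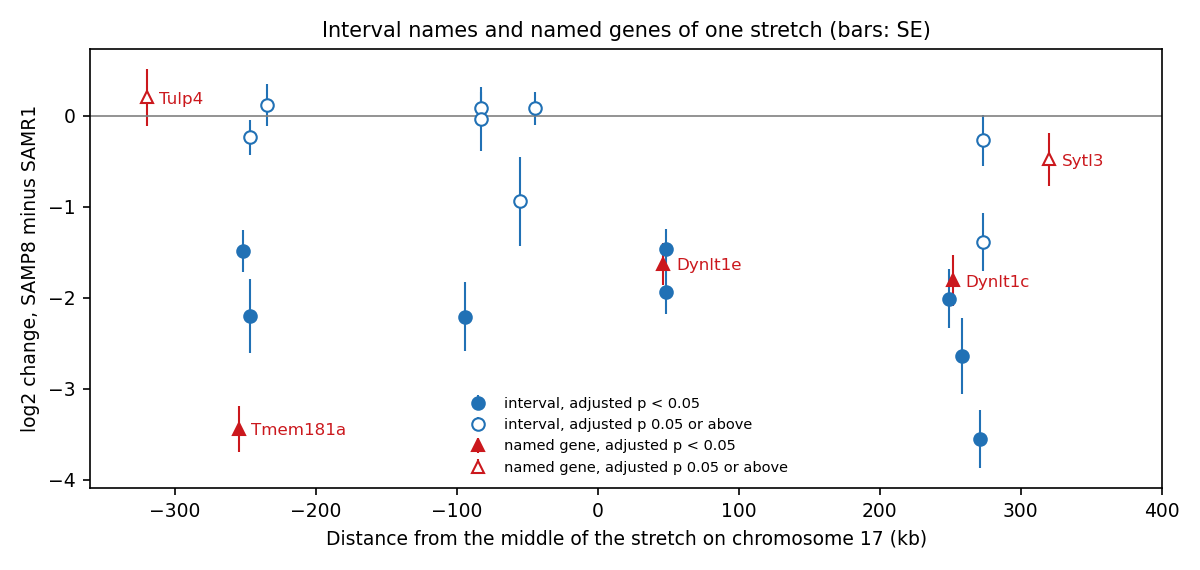
Change between SAMP8 and SAMR1 (log2, y axis; bars are SE) of 16 interval names (circles) and 5 named genes (triangles) by distance in kb from the middle of a stretch of chromosome 17; filled symbols passed adjusted p under 0.05 (limma). Of the 8 called intervals, at -3.55 to -1.47, 7 lie within 50 kb of the probe of Tmem181a, Dynlt1e or Dynlt1c.

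Outside that stretch the largest fall was chr4:89032648-89133273 R. It stood at -1.97, -2.20 and -2.0 in SAMR1 and -5.89, -6.53 and -4.83 in SAMP8 (-3.69 ± 0.36, adjusted p = 0.000539), where 1 array of 3 detected it, and at -3.24 to -2.15 in C57BL/6. Its nearest named probe, at 79869 bases, is that of Cdkn2b, which encodes the cell cycle inhibitor p15INK4b of the locus that also holds p16INK4a. Cdkn2b moved the opposite way: it stood at -3.38, -3.23 and -2.47 in SAMR1 and -1.18, -1.33 and -1.46 in SAMP8, a rise of 1.70 ± 0.28 (adjusted p = 0.0214). The name has no other kept probe, and the F name of the interval changed by 0.21 (adjusted p = 0.951).

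The fall of chr4:135911688-135915355 F (-2.27 ± 0.27, adjusted p = 0.0027) and the fall on both strands of chr6:135294099-135300310 (-1.50 ± 0.22 on F, -1.33 ± 0.21 on R, adjusted p = 0.0135 and 0.0189) were smaller. That of chr15:68924889-68931607 R lay between, at least 5.56-fold (-3.0, adjusted p = 0.0498). Of 27 alternatives, 3 kept this chr15 call and 24 kept the direction only. For it SAMR1 stood at -5.94, -3.6 and -3.66, and SAMP8 at -7.79, -7.01 and -7.39. For chr4:135911688-135915355 F, SAMR1 stood apart, at 2.61 to 3.23 against 0.30 to 1.16 on all other arrays, and both other probes of the name had the opposite sign. On chr6, SAMP8 stood at 2.15, 2.30 and 1.98 on F against 3.52, 3.59 and 3.83 in SAMR1, and Emp1, at 32751 bases, changed by -0.46 (adjusted p = 0.935).

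Among the 8 rises, chr13:98513868-98517366 R stood at -4.91 to -5.11 in SAMR1 and -3.46 to -2.08 in SAMP8 (2.41 ± 0.37, adjusted p = 0.0154), with all C57BL/6 arrays at -2.83 to -1.44. For chr4:101026387-101071790 F the values were -1.25 to -0.96 and 0.19 to 0.79 (1.61 ± 0.23, adjusted p = 0.00933). The lines differ in strain background as well as in ageing, and the 2 cannot be told apart. Without SAMR1 2, 6 names were called, without SAMR1 3, 7, and without SAMR1 1 or SAMP8 1, 12; 1 was called when the 6 arrays were fitted alone. Within either slide none was called by limma, with 541 names on slide 1 and 216 on slide 2 at an unadjusted p under 0.05; on each slide 1 of the lines had 1 array, assumed to vary like the others.

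Other probes of a called name mostly had the same sign of change as the probe that stood for it. In Old versus Young, 75 of 85 such probes (88.2%) had the same sign and 9 were called themselves. The counts were 229 of 246 with 72 called for Geriatric versus Young, 1567 of 1783 with 624 called for Geriatric versus Old and 45 of 58 with 18 called for SAMP8 versus SAMR1. In 32 of the 694 names of Geriatric versus Old that had other probes, no other probe agreed in sign. Signs also often matched among all same-strand pairs of kept probes of 1 interval, called or not. At 1 to 59 bases apart they matched in 84.2%, 84.8%, 89.7% and 77.7% of pairs, in the same order of comparisons. Beyond 10 kb they matched in 60.1%, 60.7%, 63.6% and 50.8%. The median change of all interval names in Geriatric versus Old was itself -0.44. Whether probes of called names agreed more than others at like distances was not tested.

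The nearest named gene lay at a median of 25924 bases from an interval, measured to the gene's probe. Within 10 kb lay 1056 of 3540 intervals (29.8%), within 50 kb 2300 (65.0%) and within 200 kb 3214 (90.8%), and 220 (6.21%) held a probe of the gene. The change of an interval was only weakly related to that of its nearest gene. For the 311 names with the gene's probe inside the interval, r was 0.295 for Old versus Young, 0.292 for Geriatric versus Young, 0.348 for Geriatric versus Old and 0.228 for SAMP8 versus SAMR1. For the 1087 names at 1 base to 10 kb it was 0.0907, 0.114, 0.181 and 0.102. For the 356 names beyond 200 kb it was 0.193, 0.111, 0.199 and 0.199, so that outside the interval r did not fall steadily with distance. These are correlations across names that share arrays, and several names share a gene.

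Some called intervals had a called gene within 50 kb. In Old versus Young there was 1 of 21 (4.76%, where 0.596% of all names within 50 kb had a called gene): chr10:98761521-98885681 F, 31477 bases from Dusp6, the phosphatase that switches off ERK. It stood at 0.15, -0.07 and 0.31 in Young and 1.43, 0.83 and 1.34 in Old, a rise of 1.08 ± 0.23 (adjusted p = 0.0445). Of 27 alternatives, 8 kept this call and 19 kept the direction only. Dusp6 fell by 1.18 (adjusted p = 0.027), from 1.73, 1.81 and 1.24 to 0.46, 0.41 and 0.37. Geriatric had the interval back at -0.23 and -0.07, a fall of 1.35 ± 0.25 from Old (adjusted p = 0.00484), with Dusp6 still at 0.28 and 0.28. In SAMP8 versus SAMR1 there were 7 of 18 (38.9%, beside 0.912% of all such names), all of the chromosome 17 stretch and all of the same sign as their gene. In Geriatric versus Young there were 7 of 54 (13%, beside 3.09%), all of the same sign, and in Geriatric versus Old 98 of 460 (21.3%, beside 14.7%), of which 62 had the sign of their gene.

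Intervals within 50 kb of genes for satellite cell identity, cell cycle inhibition and other lists were read out as well. Of 16 names near satellite cell genes, 1 was lower in Old than in Young (6.25%, beside 0.24% of all features) and 1 higher in Geriatric than in Old (6.25%, beside 5.52%). Of 23 names near cell cycle inhibitors and senescence genes, none was called in Old versus Young, Geriatric versus Young or SAMP8 versus SAMR1, and 1 was lower in Geriatric than in Old (4.35%, beside 14.4%), chr15:79709500-79714700 F (-1.53 ± 0.31, adjusted p = 0.00675), whose nearest named gene is Apobec3. Of 60 names near developmental transcription factors, 12 were lower and 2 higher in Geriatric than in Old, beside backgrounds of 14.4% and 5.52%. Against Young 1 was lower in Old and 1 in Geriatric, beside 0.24% and 2.61%. The 12 included 2 names at 4432 and 91 bases from Foxl1 and Fendrr on chromosome 8 (-1.63 and -1.50, adjusted p = 0.00342 and 0.0333), a locus of forkhead genes where Fendrr is itself a noncoding RNA.

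Of 28 names near early response genes, 5 were lower in Geriatric than in Old (17.9%, beside 14.4% of all features), with chr17:26669587-26669907 F, 27051 bases from the phosphatase gene Dusp1, lower by 2.74 ± 0.36 (adjusted p = 0.00073) and also lower than in Young by 1.57 ± 0.36 (adjusted p = 0.0361). Of 27 names near imprinted genes, 3 were lower in Geriatric than in Old (11.1%, beside 14.4%). They lay near Snrpn (chr7:67111261-67120645 R, at least 6.41-fold), Dlk1 (chr12:110653148-110653701 F, -1.59 ± 0.38, adjusted p = 0.0156) and Gnas (chr2:174088550-174109425 F, -0.66 ± 0.19, adjusted p = 0.0317). With no filter of probes, the name near Snrpn changed the other way, by 1.18 (limma, adjusted p = 0.237). Of 7 names near Hox genes 1 was lower in Geriatric than in Old (14.3%, beside 14.4%), chr11:96112907-96125798 F, 11950 bases from Hoxb9 (-1.41 ± 0.33, adjusted p = 0.0139). No name near any of the 6 lists was called in SAMP8 versus SAMR1.

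Noncoding RNAs that have gene names of their own were measured too. Of 19 measured, 0 were called in Old versus Young and in SAMP8 versus SAMR1, 1 was lower in Geriatric than in Young (beside 2.61% of all features) and 4 were lower in Geriatric than in Old (beside 14.4%). Xist, not well above background on either Geriatric array, was 1 of these in both. Rmst, a transcript of neural development, stood at -1.11, -3.31 and -2.53 in Old and was not well above background in Geriatric, at -6.86 and -7.03 (adjusted p = 0.00988). The other 2, from Old to Geriatric, were Nespas, the antisense transcript of the imprinted Gnas locus (-1.70 ± 0.40, adjusted p = 0.0143), and Gas5, a host of small nucleolar RNAs (-0.76 ± 0.24, adjusted p = 0.0447). The imprinted H19 and Meg3 were well above background on all arrays, at 2.10 to 4.70 and 4.43 to 5.97, and their changes, from -0.50 to 0.33, did not pass.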

How the data were processed

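The 14 arrays are single-colour (Cy3), 1 per sample, of RNA from sorted cells amplified as a whole transcriptome, per the labels' protocols. Intensity values are the processed signals as deposited: background-subtracted and detrended within each array by Agilent Feature Extraction 10.7.3.1 with probe positions on mm9, per the file headers. The deposited flags of detection, saturation and outliers are the same software's. The authors' deposited value table holds log2 values, equal to normexp (offset 50) and quantile normalization of the spot signals to within 0.000117, with column medians of 7.8.

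Here, log2 of the processed signal minus each array's 75th percentile over 55681 probes was used. Outlier spots were left out (515 missing values in the fit), replicate spots averaged, and probes kept if flagged as detected on 2 or more arrays of any 1 group (49929 probes). Each name was represented by its kept probe of highest mean. limma 3.58.1 in R 4.3.3 was fitted to all 14 arrays with 1 mean per group (9 residual degrees of freedom), with Benjamini-Hochberg adjustment over 32870 features. The script was tested on simulated data. The p-values measure the spread between these samples, and the number of arrays limits the precision.

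The members, gene lists and tests were chosen with earlier results of these data known. Named intervals are, per comparison, the 8 largest rises and falls among called names whose arrays do not overlap, called pairs of strands and called names within 50 kb of a called gene (at most 10 each), and called names within 50 kb of a listed gene; the stretches were chosen after their values were seen. Intervals on chromosome 18 were counted and are not named. The intervals at 1 further locus are counted and not reported here. Gene symbols were updated through RefSeq; no sequence was read by coordinates. Alternatives were other background correction, scaling, filters, slide and replicate blocks, fewer groups and leaving out each array. Slides were inferred from the serial number in each array's deposited name. By it, slide 1 held Young 1, Young 3, Old 2, SAMR1 1, SAMR1 3 and SAMP8 2, and slide 2 held the others. Replicate numbers did not pair the samples.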

Additional observations from a re-analysis of the deposited data

How the results depend on the processing

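Counts of called interval names (45 for Old and 131 for Geriatric against Young, 859 for Geriatric against Old, and 25 for SAMP8 against SAMR1, the order kept below) moved by over 1.5 times as follows; the cause was not tested except where fewer arrays enter by construction. For Old versus Young, normexp with quantile normalization and the authors' deposited values each gave 79, and the slide as a block 82. For Geriatric versus Young, the slide as a block gave 83. Testing every kept probe gave 133, 287, 1564 and 46 names with at least 1 called probe. Fitting only the 2 groups compared gave 1, 29, 369 and 1. Within slide 1, 0 were called for Old versus Young and for SAMP8 versus SAMR1; within slide 2 the counts were 0, 0, 163 and 0, and in all of these but the 163 one group had 1 array, assumed to vary like the others. Leaving out each array in turn gave 2 to 76, 32 to 163, 218 to 975 and 6 to 37. Other scalings and filters kept these counts within 1.5 times.

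With the replicate number as a block, 20, 81, 570 and 12 were called. The numbers do not pair the samples. For same-numbered arrays, the deviations from their group means correlated at -0.255 to -0.213 in Old versus Young and at -0.166 to 0.156 in the other comparisons.

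Of the values of single named intervals over all alternatives, 2951 kept direction and call, 825 kept direction but not the call, and 4 reversed: chr2:152172745-152184745 R in Geriatric versus Old (0.00 with normexp and quantile normalization and 0.00 with the authors' deposited values), chr7:67111261-67120645 R in Geriatric versus Old (1.18 with no filter) and chrX:135882029-135892277 R in Old versus Young (-0.10 with no filter). Dim intervals have only bounds in groups that did not detect them.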
